A study of Mus musculus with 8 samples.

Results

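The 10 genes described here belong to the bone morphogenetic protein (BMP) pathway or are its direct targets: the ligand gene Bmp4, the protease gene Bmp1, the receptor genes Bmpr1a and Bmpr2, the inhibitor of DNA binding genes Id1, Id2, Id3 and Id4, and the inhibitory SMAD genes Smad6 and Smad7. They were taken by symbol, and all 10 were found among the 23389 genes of every deposited table. Poly-A RNA had been sequenced in 8 mouse libraries, 2 in each of 4 groups. The first group is induced pluripotent stem (iPS) clones made from embryonic fibroblasts with Oct4, Klf4 and Sox2 (3F), of BALB/c background and treated with IL6 at 10 ng/mL. The second is BALB/c iPS clones labelled 4F, a factor set the labels do not spell out, with no IL6 treatment in their labels. The third is D3-GFP embryonic stem (ES) cells of the 129S2/SvPas background, and the last is BALB/c mouse embryonic fibroblasts (MEF). Each iPS library is a separately derived clone, while the paired ES libraries come from a single line and, like those of MEF, are given as biological replicates. The sources used here do not give medium, serum, LIF or feeder cells, each of which can carry BMP activity or fibroblast RNA. Only the ES cells are of another strain, so strain and cell type cannot be told apart there. Factor set and IL6 likewise cannot be told apart between the kinds of clone.

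BMP ligands bind a complex of type I receptors (such as that encoded by Bmpr1a) and type II receptors (such as that encoded by Bmpr2). The complex phosphorylates SMAD1, SMAD5 and SMAD9, which enter the nucleus with SMAD4 and switch on target genes, among them ID genes and the feedback inhibitors Smad6 and Smad7. ID proteins have a helix-loop-helix domain but no DNA-binding region, so they hold E proteins, such as those of Tcf3, Tcf4 and Tcf12, in inactive pairs. In mouse ES cells kept with LIF, BMP4 and ID proteins are known to restrain neural differentiation.

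Levels were read as RPKM, reads per kilobase of gene scaled to library depth, which allows genes of different length to be compared. The deposited tables name no unit. Depth, estimated from the smallest steps in the values, was 11600000 to 17900000 reads. Differences are on the log2(RPKM + 1) scale, which understates the change of low genes. They were tested with limma over the 13200 genes that reached 1 RPKM in 2 or more libraries, and all 10 genes were among these. The words higher, lower, rose, fell and called refer to a Benjamini-Hochberg adjusted p under 0.05 in that fit. By the longest annotated transcript and the estimated depth, Id4 in the clones rested on about 45 to 60 reads and Smad6 on about 68 to 97. Id3 in MEF rested on about 6500 by the same estimate. The cell labels held: 10 pluripotency markers summed to at least 5181 RPKM in every iPS clone, at least 5100 in ES cells and at most 8.82 in MEF. The sum of 12 fibroblast markers was 6117 and 6144 RPKM in MEF. Relative to their mean it was 6.37% and 7.99% in the 3F+IL6 clones, 5.61% and 4.82% in the 4F clones, and 3.31% and 3.29% in ES cells, where Lum was at 0 in library 2. Most of the ES sums, 202.6 and 201.8 RPKM, came from Vim, at 191 and 190. Vim was at 213 and 218 RPKM in 3F+IL6 and 175 and 154 in 4F. The sum thus understates how far most other markers differed between clones and ES cells. Within a pair, Pearson correlations across all tested genes were 0.9841 for 3F+IL6, 0.9935 for 4F, 0.9946 for ES and 0.9964 for MEF, so the 3F+IL6 clones were the least alike. The sum of 3 RNAs without a poly-A tail was uneven, at 64.9 and 60.8 RPKM in 3F+IL6, 610 and 596 in 4F, 89.8 and 704 in ES cells, and in MEF 46.5 and 268, and its part in the results was not tested. In bulk RNA, fewer cells of a type and less RNA per cell cannot be told apart.

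**Figure D1:**
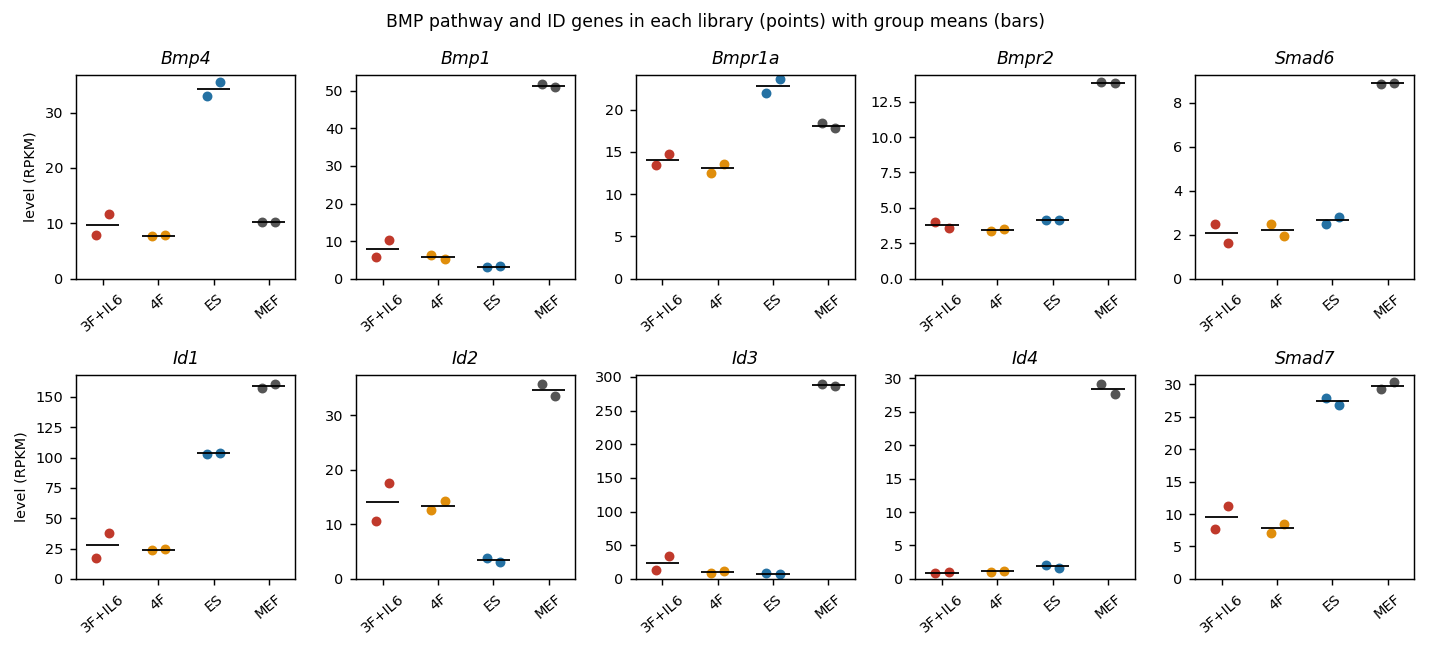
Level in RPKM (vertical axis, from 0, with its own scale per panel) of each of the 10 genes in the 8 libraries, shown as points by group, with horizontal bars at the group means. Bmp4 stands highest in ES cells, Id1 and Smad7 are lowest in the clones, and Id3, Id4, Bmp1, Bmpr2 and Smad6 are high in MEF and low in every pluripotent library.

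Against ES cells, the clones were lower in the ligand gene Bmp4, the receptor gene Bmpr1a, Id1, Id4 and Smad7, and higher in Bmp1 and Id2, with Id3 higher in 3F+IL6 as well. In 3F+IL6, 8 of the 10 genes were called, 3 higher and 5 lower, where 63.4% of all tested genes were called, 33.1% higher and 30.3% lower. In 4F, 7 were called, 2 higher and 5 lower, with 67.2% of all genes called, 33.7% higher and 33.5% lower. The median difference of the 10 genes was −0.42 in 3F+IL6 and −0.31 in 4F, where the median of all genes was 0.01 and 0.00. These shares called are near those of all genes, so the counts alone are no result about the pathway. Both comparisons use the same ES libraries.

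Against MEF, all of the set but Bmp4 was lower in both kinds of clone, while ES cells were more mixed. In 3F+IL6, 9 were lower and 0 higher, where 82.1% of all genes were called, 49.4% higher and 32.6% lower. In 4F, 9 were lower and 0 higher, where 83.6% were called, 49.2% higher and 34.4% lower. In ES cells, 6 were lower and 2 higher (Bmp4 and Bmpr1a), where 81.7% were called, 49.7% higher and 32.0% lower. The median of the 10 genes was −1.67 in 3F+IL6, −1.77 in 4F and −1.49 in ES cells, and that of all genes was 0.26, 0.25 and 0.27. The medians of all genes moved with scaling, being 0.15 for 3F+IL6, 0.17 for 4F and 0.18 for ES cells with median centring and 0.06, 0.09 and 0.15 with quantile normalization. No gene of the set that was called against MEF changed direction under either scaling. All 3 comparisons use the same MEF libraries.

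**Figure D2:**
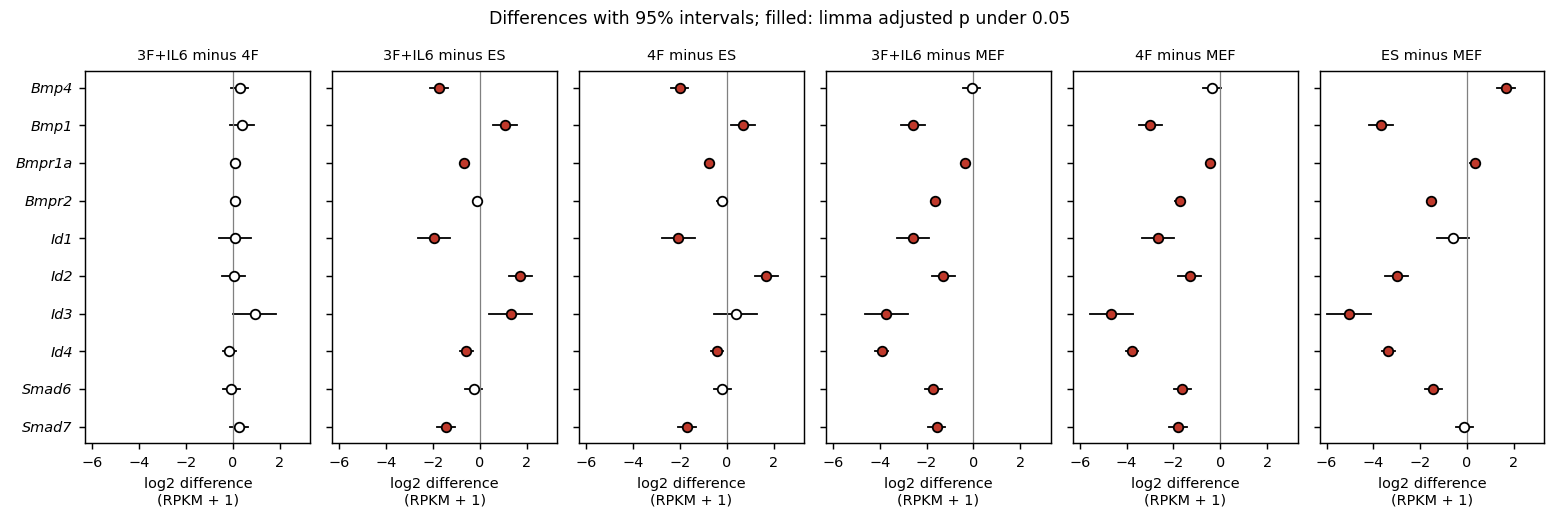
Log2 differences on the RPKM + 1 scale (horizontal axis) of each gene in the 6 comparisons, first-named group minus the other, with 95% intervals as lines and filled points where the limma adjusted p was under 0.05. No point is filled between the kinds of clone, and the points against MEF lie mostly to the left of 0.

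Bmp4 encodes the secreted ligand and lies on the minus strand of chromosome 14 (46383520 to 46390669 in mm10). For Bmp4, the 3F+IL6 clones gave 7.82 and 11.7 RPKM, the 4F clones 7.68 and 7.84, ES cells 33.0 and 35.5, and MEF 10.2 and 10.2. Both ES libraries stood above all others, and the MEF values lay between those of the 3F+IL6 clones. Bmp4 was lower than in ES cells in 3F+IL6 (log2 difference −1.73, SE 0.16, limma adjusted p = 0.00012) and likewise in 4F (−2.01, SE 0.16, limma adjusted p = 6.2e-05). ES cells exceeded MEF by 1.65 log2 units (limma adjusted p = 4.2e-05). Between clones and MEF Bmp4 was not called, at −0.08 for 3F+IL6 and −0.35 for 4F (limma adjusted p = 0.65 and 0.07). The 4F difference was called with median centring (−0.43), with quantile normalization (−0.44), and at −0.35 with array weights, when the 4 samples were fitted alone, and without either 3F+IL6 clone. Without 3F+IL6 clone 1 the 3F+IL6 difference from MEF was 0.19 and without clone 2 it was −0.35, both called, so its sign depended on the clone used.

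The RefSeq promoter table (GRCm38.p6) holds the 250 bases upstream of the Bmp4 start, at chr14:46390670-46390919 on the minus strand. The window is shown because Bmp4 is the ligand gene whose level set ES cells apart, and the capitals mark CACGTG, an E box. That motif occurs in 6.02% of all 32851 windows of this length.
Bmp4: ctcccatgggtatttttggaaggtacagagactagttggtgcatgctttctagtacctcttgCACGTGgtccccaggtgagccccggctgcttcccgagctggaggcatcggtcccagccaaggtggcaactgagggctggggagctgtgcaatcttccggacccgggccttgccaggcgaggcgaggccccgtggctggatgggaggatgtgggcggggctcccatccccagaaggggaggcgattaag
A match describes the letters only.

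Bmp1, despite its name, encodes a secreted metalloprotease that trims procollagens and cleaves the BMP inhibitor chordin (chromosome 14, 70474558 to 70520234). For Bmp1, the 3F+IL6 clones gave 5.78 and 10.2 RPKM, the 4F clones 6.17 and 5.15, ES cells 2.97 and 3.3, and MEF 51.9 and 50.9. MEF stood far above every pluripotent library, and every clone stood above both ES libraries. Relative to MEF Bmp1 fell, with log2 differences of −2.59 in 3F+IL6, −2.98 in 4F and −3.66 in ES cells, with limma adjusted p of 2.1e-05, 9.2e-06 and 3.2e-06. Relative to ES cells it rose by 1.07 in 3F+IL6 (limma adjusted p = 0.004) and by 0.68 in 4F (adjusted p by limma = 0.026). The 3F+IL6 value was 0.71 without clone 2. The 4F call was lost without 4F clone 1 (0.57) or 2 (0.79) and without ES library 1 (0.63) or 2 (0.74).

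Of 6 tested relatives, substrates and enhancers of BMP1, all 6 were lower than MEF in 3F+IL6, in 4F and in ES cells, where 32.6%, 34.4% and 32.0% of all genes were lower. Tll1 passed the filter only through MEF, and 3 of the 6 are collagen genes of the fibroblast marker list. The count was thus largely fixed in advance and is no result about the list. Tll1, a related protease gene, had 0.253 and 0.666 RPKM in 3F+IL6 clones, 0.258 and 0.288 for 4F clones, 0.164 and 0.133 for ES cells, and 48.8 and 48.1 for MEF. Col1a1, a procollagen gene, had 51.4 and 71.6 RPKM in 3F+IL6 clones, 55.7 and 47.0 for 4F clones, 1.59 and 1.66 for ES cells, and 1240 and 1230 for MEF. Pcolce, which encodes an enhancer of procollagen cleavage, had 67.4 and 74.9 RPKM in 3F+IL6 clones, 66.9 and 60.7 for 4F clones, 145 and 153 for ES cells, and 254 and 254 for MEF. Relative to ES cells the 3 collagen genes Col1a1, Col1a2 and Col3a1 rose in both kinds of clone and Pcolce fell, with log2 differences of −1.06 in 3F+IL6 and −1.22 in 4F. These collagen genes are on the fibroblast marker list, and the part of fibroblast RNA in the clones' values was not tested.

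Bmpr1a encodes a type I BMP receptor (chromosome 14, 34410734 to 34503341). For Bmpr1a, the 3F+IL6 clones gave 13.4 and 14.7 RPKM, the 4F clones 12.5 and 13.6, ES cells 22.0 and 23.6, and MEF 18.4 and 17.8. Its range over the groups was the narrowest of the 10 genes, with the highest mean 1.75 times the lowest, yet ES, MEF and the clones formed separate steps. It was lower than in ES cells in 3F+IL6 (−0.67, limma adjusted p = 0.00035) and in 4F (−0.76, limma adjusted p = 0.00018). It was also lower than in MEF, at −0.35 in 3F+IL6 and −0.44 in 4F (adjusted p by limma = 0.0043 and 0.0012). ES cells were above MEF by 0.32 (limma adjusted p = 0.0064), and quantile normalization (0.16) or leaving out ES library 2 (0.27) ended that call.

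Bmpr2 encodes the type II BMP receptor (chromosome 1, 59763400 to 59879014). For Bmpr2, the 3F+IL6 clones gave 3.99 and 3.61 RPKM, the 4F clones 3.4 and 3.51, ES cells 4.11 and 4.17, and MEF 13.9 and 13.8. MEF stood apart, and the pluripotent groups lay within a narrow band, ES cells at its top. Relative to MEF Bmpr2 fell, at −1.63 in 3F+IL6, −1.74 in 4F and −1.53 in ES cells (limma adjusted p = 1.5e-06, 1.1e-06 and 1.9e-06). Relative to ES cells it was not called, at −0.10 in 3F+IL6 and −0.20 in 4F (adjusted p by limma = 0.31 and 0.057). The 4F difference was called with quantile normalization (−0.29), and at −0.20 with array weights, without a variance trend, and without either 3F+IL6 clone.

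The other receptor and co-receptor genes did not all move the same way. Of 9 tested, 3 rose and 5 fell against MEF in 3F+IL6, 3 rose and 5 fell in 4F, and 2 rose and 6 fell in ES cells. In each group 88.9% were called, near the 82.1%, 83.6% and 81.7% of all genes. Those that fell were 55.6%, 55.6% and 66.7% of the list, where 32.6%, 34.4% and 32.0% of all genes fell. Bmpr1b passed the filter only through MEF, and Acvr2b and Hfe2 only through pluripotent libraries, so their directions were fixed by the filter. Acvr2b, a type II receptor gene shared with activins, had 10.5 and 10.7 RPKM in 3F+IL6 clones, 11.4 and 9.65 for 4F clones, 10.7 and 10.4 for ES cells, and 0.331 and 0.582 for MEF. Bmpr1b, a type I receptor gene, had 0.137 and 0.206 RPKM in 3F+IL6 clones, 0.0623 and 0.0293 for 4F clones, 0.175 and 0.209 for ES cells, and 9.35 and 9.17 for MEF. Acvr1, another type I receptor gene, had 2.7 and 2.96 RPKM in 3F+IL6 clones, 2.18 and 2.1 for 4F clones, 2.7 and 2.96 for ES cells, and 17.7 and 17.7 for MEF. Bmpr2, Bmpr1b and Acvr1 were thus high in fibroblasts and Acvr2b in pluripotent cells. Against ES cells 5 rose and 1 fell in 3F+IL6, and 3 rose and 2 fell in 4F. That is 66.7% and 55.6% called, where 63.4% and 67.2% of all genes were, so these counts are no result about the list. With quantile normalization 3 rose and 2 fell in 3F+IL6, and 2 rose and 3 fell in 4F. Acvrl1, a type I receptor gene best known from endothelium, rose by 0.84 in 3F+IL6 and 0.79 in 4F (adjusted p by limma = 0.00094 and 0.0011). The co-receptor gene Rgma rose in 3F+IL6 by 1.30 (limma adjusted p = 0.0047), with 1.23 and 3.12 RPKM in those clones and 0.157 and 0.312 RPKM in ES cells. In 4F, Rgma had 1.23 and 0.809 RPKM and was at 0.71, not called (limma adjusted p = 0.051). With median centring that 4F difference was called (0.72).

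Of the 4 SMAD genes that carry the signal, 3 fell and 0 rose against ES cells in 3F+IL6, and 3 fell and 1 rose in 4F, where 30.3% and 33.5% of all genes fell. Smad4, the shared partner, had 22.7 and 25.3 RPKM in 3F+IL6 clones, 23.5 and 23.1 for 4F clones, 43.5 and 45.9 for ES cells, and 27.0 and 27.9 for MEF, so ES cells stood above the rest. It fell relative to ES cells, with log2 differences of −0.87 in 3F+IL6 and −0.91 in 4F (adjusted p by limma = 6.3e-05 and 5.3e-05). Smad1 fell, at −0.44 in 3F+IL6 and −0.62 in 4F, and Smad5 fell, at −0.33 in 3F+IL6 and −0.47 in 4F. Smad9, the lowest of them in RPKM, had 0.164 and 0.385 RPKM in 3F+IL6 clones, 0.372 and 0.35 for 4F clones, 0.0813 and 0.0764 for ES cells, and 3.22 and 2.88 for MEF. It was not called in 3F+IL6 against ES cells (0.23) and rose in 4F (0.33, limma adjusted p = 0.028), a call that quantile normalization ended (0.04).

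The ID genes are the best known immediate targets of the pathway. Their summed level was 41.7 and 90.7 RPKM in the 3F+IL6 pair, 46.8 and 51.8 RPKM in the 4F pair, 118 and 116 RPKM in ES cells, and in MEF 511 and 509 RPKM. Id1 made up 42.3% and 41.8% of it in 3F+IL6, 50.7% and 47.6% in 4F, 87.6% and 89.9% in ES cells, and in MEF 30.7% and 31.7%. Id3 led in MEF, with 56.6% and 56.3%, and Id1 led in every pluripotent library. Id2 held 25.5% and 19.4% of the sum in 3F+IL6 and 26.9% and 27.5% in 4F, against 3.26% and 2.61% in ES cells. Id4 was the lowest of the family in all 8 libraries, at 5.7% or less of the sum.

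**Figure D3:**
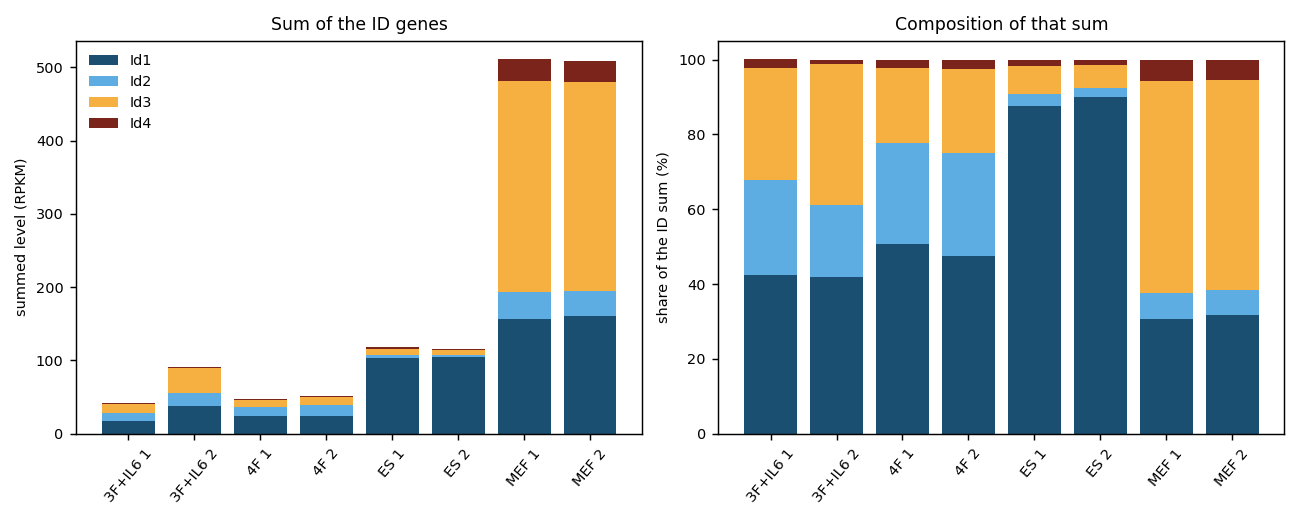
Left, summed RPKM of Id1, Id2, Id3 and Id4 (stacked, vertical axis from 0) in each library; right, the share of each gene in that sum in percent. The MEF sums reach 511 RPKM with Id3 leading, and Id1 makes up 87.6% and 89.9% of the sum in ES cells.

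Id1 (chromosome 2, 152736251 to 152737410) differed little within the 4F, ES and MEF pairs. For Id1, the 3F+IL6 clones gave 17.6 and 37.9 RPKM, the 4F clones 23.7 and 24.6, ES cells 103 and 104, and MEF 157 and 161. All 4 clones lay below both ES libraries, which lay below MEF, and the 4F values fell between those of the 3F+IL6 clones. Id1 was lower than in ES cells in 3F+IL6 (−1.96, SE 0.29, limma adjusted p = 0.001) and likewise in 4F (−2.06, SE 0.29, limma adjusted p = 0.00075). Against MEF it fell, at −2.57 in 3F+IL6 and −2.67 in 4F (adjusted p by limma = 0.00011 and 8.5e-05). ES cells were at −0.61 relative to MEF, not called (limma adjusted p = 0.087). That difference was called with median centring (−0.70), with quantile normalization (−0.76), and at −0.61 with array weights, when the 4 samples were fitted alone, and without either 3F+IL6 clone.

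Id2 (chromosome 12, 25093799 to 25097140) ran the other way between clones and ES cells. For Id2, the 3F+IL6 clones gave 10.6 and 17.6 RPKM, the 4F clones 12.6 and 14.2, ES cells 3.84 and 3.03, and MEF 35.8 and 33.6. ES cells held the lowest values, clones the middle and MEF the highest, with no overlap between these levels. Against ES cells Id2 rose by 1.73 in 3F+IL6 (SE 0.21, limma adjusted p = 0.00042) and by 1.70 in 4F (SE 0.21, limma adjusted p = 0.00041). Against MEF it fell, at −1.28 in 3F+IL6, −1.31 in 4F and −3.01 in ES cells (limma adjusted p = 0.00087, 0.00075 and 8e-06).

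Id3 (chromosome 4, 136143497 to 136145755) had the widest range of the 10 genes, its MEF mean being 36.8 times that of ES cells. For Id3, the 3F+IL6 clones gave 12.5 and 34.2 RPKM, the 4F clones 9.39 and 11.6, ES cells 8.62 and 7.04, and MEF 289 and 286. MEF stood far above all others, and 3F+IL6 clone 2 was the highest pluripotent library. Relative to MEF Id3 fell, at −3.73 in 3F+IL6, −4.65 in 4F and −5.04 in ES cells (limma adjusted p = 7.1e-05, 2e-05 and 1.3e-05). Against ES cells it rose in 3F+IL6 (1.31, SE 0.39, limma adjusted p = 0.021) and was not called in 4F (0.38, limma adjusted p = 0.41). The 3F+IL6 call was lost when the 4 samples were fitted alone (limma adjusted p = 0.085), without ES library 1 (1.44, limma adjusted p = 0.058) and without ES library 2 (1.18, limma adjusted p = 0.1). Its size was 2.00 without clone 1 and 0.62 without clone 2. The 4F difference was called at 0.38 without either 3F+IL6 clone.

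Id4 (chromosome 13, 48261228 to 48266026) was near the floor of the tested range in the pluripotent libraries. For Id4, the 3F+IL6 clones gave 0.901 and 0.974 RPKM, the 4F clones 1.07 and 1.25, ES cells 2.15 and 1.61, and MEF 29.1 and 27.6. MEF stood apart, and every clone lay below both ES libraries. Relative to MEF Id4 fell, at −3.92 in 3F+IL6, −3.77 in 4F and −3.36 in ES cells (limma adjusted p = 1.6e-07, 1.7e-07 and 2.5e-07). It was also lower than in ES cells, at −0.57 in 3F+IL6 and −0.41 in 4F (adjusted p by limma = 0.0041 and 0.016). A pseudocount of 0.1 made these differences −0.92 and −0.64, and quantile normalization −0.95 and −0.70. Array weights ended the 3F+IL6 call (limma adjusted p = 0.051), and leaving out 4F clone 1 (−0.35) or ES library 1 (−0.27) ended the 4F call.

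Upstream sequence of Id2, Id3 and Id4 is shown because these members of the family were lower in every pluripotent group than in MEF by unlike amounts. The RefSeq promoter table matched 7 of the 10 genes, and those without an entry are Bmp1, Id1 and Smad7. The windows are the 250 bases before the start, at chr12:25096093-25096342 on the minus strand for Id2, chr4:136143572-136143821 on the plus strand for Id3 and chr13:48260866-48261115 on the plus strand for Id4. RefSeq starts can differ from the ends of the GENCODE spans given above, and the Id2 and Id3 windows lie within those spans. Capitals mark GGCGCC, a GC-rich motif known from BMP response elements, and CAGAC, known from SMAD binding elements, or its reverse complement GTCTG.
Id2: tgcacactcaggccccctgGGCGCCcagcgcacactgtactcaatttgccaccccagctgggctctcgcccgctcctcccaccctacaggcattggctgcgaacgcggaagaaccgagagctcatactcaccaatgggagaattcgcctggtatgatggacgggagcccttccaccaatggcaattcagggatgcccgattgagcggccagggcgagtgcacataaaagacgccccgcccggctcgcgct
Id3: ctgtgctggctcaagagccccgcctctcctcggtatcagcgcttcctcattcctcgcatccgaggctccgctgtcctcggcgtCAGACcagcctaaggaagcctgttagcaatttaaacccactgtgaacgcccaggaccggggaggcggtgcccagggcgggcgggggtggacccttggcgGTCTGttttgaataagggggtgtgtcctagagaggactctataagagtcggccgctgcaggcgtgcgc
Id4: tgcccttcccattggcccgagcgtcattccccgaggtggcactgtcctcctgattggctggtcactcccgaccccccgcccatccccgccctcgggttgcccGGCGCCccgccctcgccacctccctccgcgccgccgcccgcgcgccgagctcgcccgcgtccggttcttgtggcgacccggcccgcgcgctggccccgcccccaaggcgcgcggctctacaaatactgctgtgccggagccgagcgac
Both strands were searched for these motifs and for TATAAA and CACGTG, and no matches overlapped. GGCGCC starts 231 bases before the RefSeq start of Id2 and 148 bases before that of Id4. In Id3, CAGAC starts 167 bases and its reverse complement 68 bases before the start. GGCGCC is present in 9.59% and CAGAC in 42.2% of all 32851 windows. GGCGCC also occurs before Bmpr1a and Bmpr2, and none of the 4 motifs before Smad6. TATAAA, found in 12.4% of all windows, is in none of the 7. The windows hold 18 CpG dinucleotides in Id2, 18 in Id3 and 35 in Id4, against a median of 6 over all windows.

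Smad6 encodes an inhibitory SMAD that acts mainly on BMP receptors (chromosome 9, 63953076 to 64022059). For Smad6, the 3F+IL6 clones gave 2.48 and 1.63 RPKM, the 4F clones 2.48 and 1.93, ES cells 2.49 and 2.8, and MEF 8.85 and 8.92. The pluripotent groups lay close together and MEF above them. Relative to MEF Smad6 fell, at −1.71 in 3F+IL6, −1.63 in 4F and −1.44 in ES cells (limma adjusted p = 3e-05, 3.7e-05 and 7.5e-05). Against ES cells it was not called, at −0.27 in 3F+IL6 and −0.19 in 4F (adjusted p by limma = 0.16 and 0.3). The 3F+IL6 difference was −0.47 and called without 3F+IL6 clone 1.

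Smad7 encodes an inhibitory SMAD that acts on BMP and on TGF-beta receptors (chromosome 18, 75367529 to 75395935). For Smad7, the 3F+IL6 clones gave 7.76 and 11.3 RPKM, the 4F clones 7.14 and 8.45, ES cells 27.9 and 26.8, and MEF 29.3 and 30.3. ES cells were close to MEF, and the 4 clones stood together well below both. Smad7 was lower than in ES cells in 3F+IL6 (−1.45, limma adjusted p = 0.00025) and in 4F (−1.69, limma adjusted p = 0.00012). Against MEF it fell, at −1.57 in 3F+IL6 and −1.81 in 4F (adjusted p by limma = 5.7e-05 and 2.4e-05). ES cells were at −0.12 relative to MEF (95% interval −0.49 to 0.25, limma adjusted p = 0.49), which was called when the 4 samples were fitted alone. The Smad7 level was 3.13 and 6.94 times that of Smad6 in 3F+IL6, 2.88 and 4.37 times in 4F, 11.2 and 9.58 times in ES cells, and in MEF 3.31 and 3.4 times.

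Between 3F+IL6 and 4F clones 0 of the 10 genes were called, where 1.34% of all genes were (0.773% higher and 0.568% lower), and 1 of them, Id3, had an unadjusted p under 0.05. Id3 differed by 0.93 (95% interval 0.01 to 1.85, limma adjusted p = 0.2). The differences were 0.39 for Bmp1 (−0.12 to 0.90) and 0.28 for Bmp4 (−0.10 to 0.65). The intervals were −0.59 to 0.78 for Id1, −0.47 to 0.53 for Id2 and −0.13 to 0.62 for Smad7, so differences within these intervals could not be told apart from 0. The receptors had the narrowest intervals, −0.09 to 0.28 for Bmpr1a and −0.09 to 0.30 for Bmpr2. With 3F+IL6 clone 1 left out, Bmp4 (0.54), Bmp1 (0.75), Id1 (0.63), Id3 (1.62) and Smad7 (0.49) were called higher. With clone 2 left out Id1 alone was called, and lower (−0.44). Either omission leaves a single 3F+IL6 library, which is then assumed to vary like the other groups.

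The 3F+IL6 clones differed from each other more in several of these genes than in most genes. Clone 2 was above clone 1 by 1.38 log2 units for Id3, a gap larger than that of 99.3% of all tested genes in this pair. The gap was 1.07 for Id1 (larger than 98.7% of genes), 0.72 for Bmp1 (95.6%), 0.68 for Id2 (94.7%) and 0.53 for Bmp4 (90.0%). Bmpr1a, Bmpr2 and Id4 differed by 0.12 or less, and Smad6 ran the other way (−0.40). The 4F clones differed by 0.28 at most among these genes, for Id3. In the ES pair, whose spread was smaller, the gaps of Id2 (−0.27), Id3 (−0.26) and Id4 (−0.27) were also larger than those of 95.1%, 94.8% and 95.2% of genes. The fibroblast marker sum was also unequal, at 390.5 RPKM in 3F+IL6 clone 1 and 489.9 in clone 2. Vim, its largest part, was nearly equal (213 and 218 RPKM), so the gap lay mostly in the other markers. The part of this sum in the result was not tested. Among its markers Dcn, a matrix proteoglycan gene, had 44.1 and 66.6 RPKM in 3F+IL6 clones, 30.9 and 24.5 for 4F clones, 0.101 and 0.0707 for ES cells, and 34.7 and 33.7 for MEF. Thy1, a surface protein gene, had 11.4 and 16.5 RPKM in 3F+IL6 clones, 11.9 and 11.3 for 4F clones, 2.02 and 2.08 for ES cells, and 535 and 524 for MEF. Relative to the MEF mean, Id3 was at 4.35% and 11.9% and Id1 at 11.1% and 23.8% in the 3F+IL6 clones.

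The summed markers of other cell types were also compared. The primitive endoderm sum of 5 genes was 2.82 and 6.71 RPKM in 3F+IL6, 4.79 and 3.51 in 4F, 7.39 and 7.65 in ES cells, and in MEF 1.76 and 1.74. It was thus also unequal between the 3F+IL6 clones, and its part in their ID gene levels was not tested. The trophoblast sum of 5 genes was 2.61 to 3.11 RPKM in the iPS clones and 7.05 at most elsewhere, and the endothelial sum of 4 genes was 2.45 at most. The macrophage sum of 4 genes was 22.0 to 35.5 RPKM in the clones, most of it from Cd68. Within it Emr1 had 0.976 and 1.0 RPKM in 3F+IL6 clones, 0.567 and 0.46 for 4F clones, 0 and 0 for ES cells, and 0.0512 and 0.0835 for MEF, and Ptprc was at 0.0561 RPKM at most in any library. Csf1r, the last of the 4, had 0.152 and 0.16 RPKM in 3F+IL6 clones and 0.151 and 0.142 in 4F clones. It had 0.0484 and 0.017 RPKM in ES cells and 0.585 and 0.823 in MEF. Cd68 and Emr1 were thus above ES cells and MEF in every clone, while Csf1r was above ES cells but below MEF. The part of these genes in the results was not tested.

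**Figure D4:**
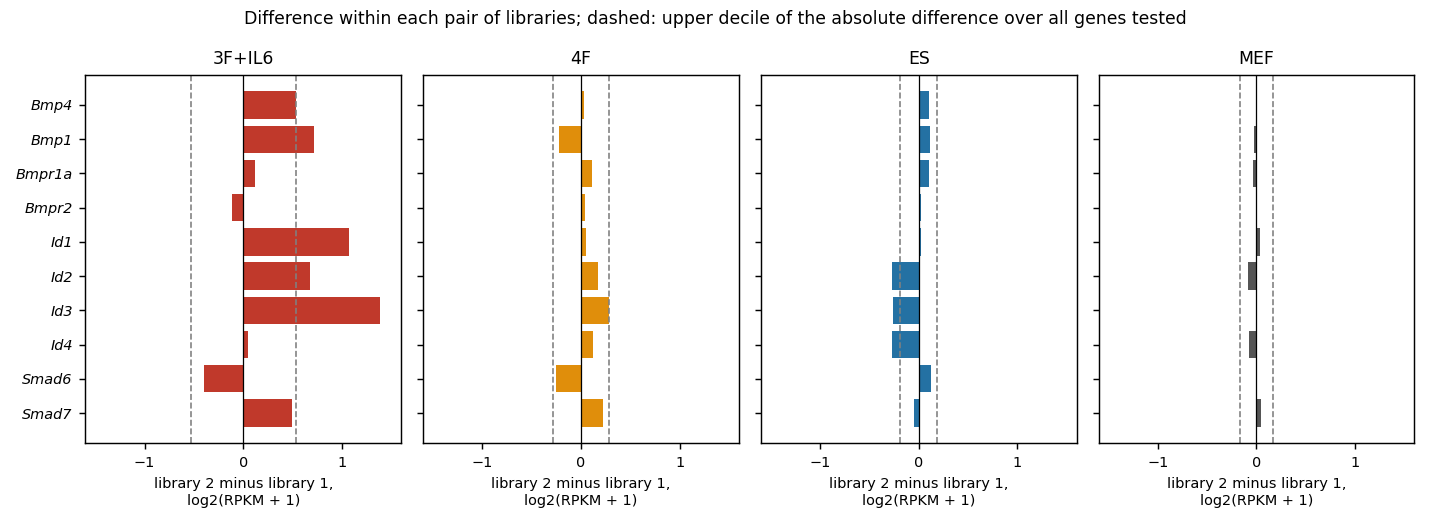
Library 2 minus library 1 in log2(RPKM + 1) (horizontal axis) for each gene in the 4 pairs, with dashed lines at the upper decile of the absolute difference over all tested genes in that pair. Id1, Id3, Bmp1 and Id2 pass that line in the 3F+IL6 pair, where it lies at 0.532, Id2, Id3 and Id4 pass it in the ES pair, where it lies at 0.189, and the MEF bars are all within theirs, at 0.166.

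Beyond the 10 genes, 59 other pathway genes were listed and 43 of them were tested. Against ES cells 17 rose and 9 fell in 3F+IL6, with a median of 0.22, and 18 rose and 10 fell in 4F, with a median of 0.16. That is 60.5% called in 3F+IL6 and 65.1% in 4F, near the 63.4% and 67.2% of all genes. With quantile normalization 11 rose and 11 fell in 3F+IL6, and 13 rose and 11 fell in 4F, so the larger number of rises depended on the scaling. Against MEF 13 rose and 26 fell in 3F+IL6, 14 rose and 26 fell in 4F, and 11 rose and 27 fell in ES cells. That is 90.7%, 93.0% and 88.4% called, where 82.1%, 83.6% and 81.7% of all genes were. Those that fell were 60.5%, 60.5% and 62.8% of the list, where 32.6%, 34.4% and 32.0% of all genes fell. Bmpr1b, Smad9, Nog, Bmper, Msx2, Atoh8 and Runx2 were below 1 RPKM in every pluripotent library and passed the filter only through MEF. Gdf3, Bmp7 and Acvr2b, among others, passed it only through pluripotent libraries. Their directions were fixed by the filter, and the list was chosen with earlier results known, so these shares are no result about the list. Between the kinds of clone limma called 0, while 12 had an unadjusted p under 0.05. Without 3F+IL6 clone 1 20 were called, and without clone 2 the number called was 3.

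Secreted and membrane inhibitors mostly trap BMPs or related ligands outside the cell. Against ES cells, of 11 tested, 6 rose and 0 fell in 3F+IL6, and 5 rose and 1 fell in 4F. In each comparison 54.5% were called, below the 63.4% and 67.2% of all genes, so the counts are no result about the list. With quantile normalization 5 rose and 1 fell in 3F+IL6, and 6 rose and 1 fell in 4F. Grem1, which encodes the BMP antagonist gremlin 1, had 17 and 30.9 RPKM in 3F+IL6 clones, 12.6 and 14.4 for 4F clones, 0.272 and 0.0817 for ES cells, and 70.9 and 67.0 for MEF. Its difference from ES cells was 4.35 in 3F+IL6 and 3.62 in 4F (adjusted p by limma = 1.6e-05 and 3.4e-05). Nbl1, an antagonist gene of the same family, rose by 1.27 in 3F+IL6 and 1.00 in 4F, and Fstl3, a follistatin-like gene, by 1.87 and 2.22. Grem1, Nbl1 and Fstl3 were each lower in ES cells than in MEF. Of the 11, 9 were lower in ES cells than in MEF (81.8%) and 1 was higher (9.09%). Of all genes, 32.0% were lower and 49.7% higher. Chrd was the higher one, with 1.61 and 1.36 RPKM in ES cells and 0.742 and 0.712 in MEF. Twsg1 was not called, with 22.0 and 22.4 RPKM in ES cells and 21.8 and 21.9 in MEF. Nog and Bmper passed the filter only through MEF.

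As a share of their MEF mean, the inhibitors differed widely within the same clones. Grem1 was at 24.7% and 44.7% in 3F+IL6 and 18.2% and 20.9% in 4F. Fstl3 was at 32.5% and 17.8% in 3F+IL6 and 35.3% and 29.1% in 4F. Fst, the follistatin gene, was at 0.764% and 1.37% in 3F+IL6 and 0.571% and 0.63% in 4F, so its share was far smaller. The fibroblast markers also ranged widely, with Col1a1 at 4.16% and 5.79% in 3F+IL6 while Dcn exceeded its MEF level in clone 1 and clone 2.

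**Figure D5:**
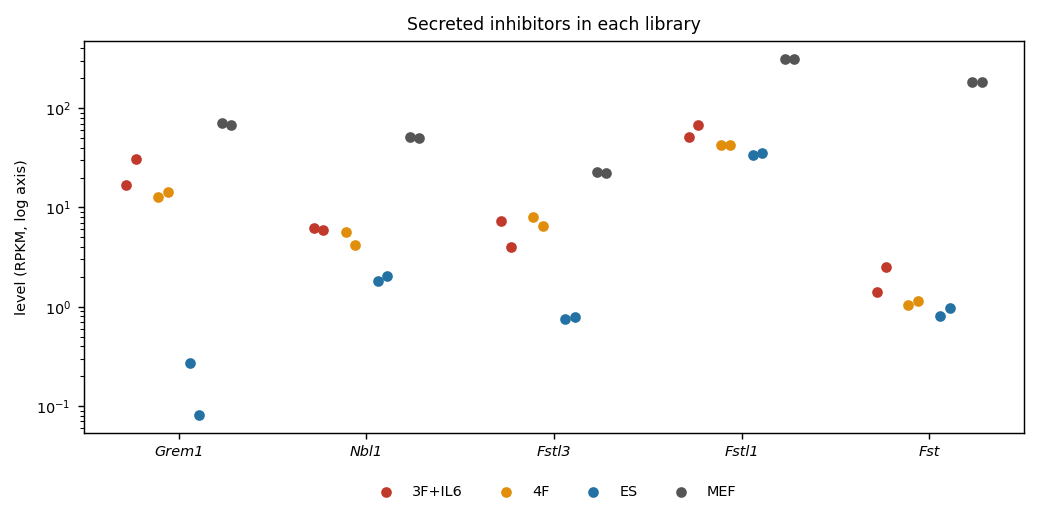
Level in RPKM (vertical log axis) of 5 secreted inhibitor genes in each library, by group. ES cells are lowest for every gene shown, with Grem1 at 0.272 and 0.0817 RPKM, and MEF are highest for every gene shown. The 5 genes are a choice from the 11 tested, and Chrd and Twsg1, not shown, had other orders.

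Among other ligand genes, Gdf3, a BMP relative expressed in pluripotent cells, had 26.4 and 25.7 RPKM in 3F+IL6 clones, 20.6 and 21.5 for 4F clones, 55.5 and 53.9 for ES cells, and 0.2 and 0.0956 for MEF. Like Bmp4 it was lower in the clones than in ES cells, at −1.04 in 3F+IL6 and −1.34 in 4F (adjusted p by limma = 3.8e-05 and 1.5e-05), but it was near 0 in MEF. Bmp7, another ligand gene, had 3.67 and 1.89 RPKM in 3F+IL6 clones, 5.28 and 6.05 for 4F clones, 2.58 and 3.25 for ES cells, and 0.0285 and 0.0278 for MEF. Only 4 of the 14 other ligand genes passed the filter, and Gdf2 was listed at 0 in all 8 libraries.

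Inside the cell, the SMAD corepressor gene Skil rose against ES cells by 1.37 in 3F+IL6 and 1.02 in 4F, while the related Ski fell, at −0.53 in 3F+IL6 and −0.68 in 4F. Smurf1, whose ubiquitin ligase degrades SMADs and receptors, fell relative to MEF, with log2 differences of −1.53 in 3F+IL6, −1.49 in 4F and −1.42 in ES cells. Of 6 such inhibitor genes tested, 2 rose (33.3%) and 3 fell (50.0%) against MEF in each of these groups. Of all genes, 49.4%, 49.2% and 49.7% rose and 32.6%, 34.4% and 32.0% fell. Tob1 (0.57, 0.74 and 0.65) and Ppm1a (0.62, 0.55 and 0.31) rose, though quantile normalization ended the ES call of Ppm1a (0.10). Other known targets were called in both directions. Of 9 tested, 3 rose and 2 fell in 3F+IL6 against ES cells, and 5 rose and 1 fell in 4F. That is 55.6% and 66.7% called, not above the 63.4% and 67.2% of all genes, so the counts are no result about the list. With quantile normalization 1 rose and 2 fell in 3F+IL6, and 2 rose and 1 fell in 4F. Hey1, a repressor gene that also answers to Notch, had 4.95 and 3.29 RPKM in 3F+IL6 clones, 3.86 and 4.59 for 4F clones, 0.63 and 0.422 for ES cells, and 1.29 and 1.07 for MEF. Tbx3, a transcription factor gene of naive pluripotent cells, had 7.28 and 13.0 RPKM in 3F+IL6 clones, 12.3 and 13.6 for 4F clones, 30.4 and 30.6 for ES cells, and 3.22 and 3.5 for MEF. Dusp9, an ERK phosphatase gene known as a BMP target in mouse ES cells, had 75.0 and 50.8 RPKM in 3F+IL6 clones, 89.0 and 82.5 for 4F clones, 83.4 and 83.8 for ES cells, and 7.0 and 6.81 for MEF. Against ES cells Dusp9 was at 0.04 in 4F (adjusted p by limma = 0.86) and fell, at −0.43 in 3F+IL6 (limma adjusted p = 0.047; not called with median centring, −0.46, or quantile normalization, −0.40), while Hey1 rose and Tbx3 fell in both. Runx2, a bone lineage transcription factor gene, fell relative to MEF, with log2 differences of −2.69 in 3F+IL6, −2.83 in 4F and −3.07 in ES cells.

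The E protein genes, whose products ID proteins bind, moved in unlike ways. Tcf3 had 55.1 and 66.4 RPKM in 3F+IL6 clones, 51.6 and 50.5 for 4F clones, 50.5 and 50.0 for ES cells, and 36.1 and 34.8 for MEF, and was higher than MEF in each pluripotent group. Tcf12 had 6.21 and 8.4 RPKM in 3F+IL6 clones, 5.44 and 5.2 for 4F clones, 12.6 and 13.3 for ES cells, and 28.4 and 28.5 for MEF. It fell relative to ES cells, with log2 differences of −0.76 in 3F+IL6 and −1.15 in 4F (adjusted p by limma = 0.0015 and 0.00022). Tcf4 had 3.6 and 5.12 RPKM in 3F+IL6 clones, 3.27 and 3.87 for 4F clones, 5.87 and 5.88 for ES cells, and 9.59 and 10.0 for MEF.

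Genes most like a member in profile were found by the root mean square difference of log2(RPKM + 1), each gene centred on its own mean, over the 8 libraries and 12115 genes. For Bmp4 the nearest were Jmjd4 (0.091), Rasl11a (0.123) and Fubp3 (0.146), against a median of 0.93 over all genes. Rasl11a, a small GTPase gene, had 2.63 and 3.87 RPKM in 3F+IL6 clones, 2.06 and 3.02 for 4F clones, 12.1 and 12.6 for ES cells, and 2.84 and 3.57 for MEF. For Id1 they were Atf5 (0.23), Camk1 (0.234) and Kirrel (0.234), and Atf5, a transcription factor gene, had 8.66 and 14.5 RPKM in 3F+IL6 clones, 9.55 and 8.85 for 4F clones, 61.5 and 61.6 for ES cells, and 80.9 and 80.9 for MEF. For Id2 they were Lama4 (0.168), Il4ra (0.181) and Rasa4 (0.195), and for Id3 Wnt5a (0.194), Loxl1 (0.232) and Ccnd2 (0.262). Wnt5a, a secreted signal gene, had 1.25 and 3.56 RPKM in 3F+IL6 clones, 0.765 and 1.13 for 4F clones, 0.115 and 0.0754 for ES cells, and 44.9 and 44.1 for MEF. For Id4 they were Nipal1 (0.06), Ehbp1l1 (0.161) and Lmna (0.186), and for Smad6 Jdp2 (0.096), Ptpn21 (0.099) and Lass6 (0.109).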

How the data were processed

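Poly-A RNA of 8 mouse libraries (TruSeq kit, 500 ng of total RNA and 50 bp reads, per the labels' protocols and design text) was mapped to mm10, a build also named by the submitters' processing notes. The aligner, counting tool, gene models and strand setting are not stated in the sources used here. The deposited tables name no unit. They were read as RPKM made by the authors, since many low values multiplied by transcript length fell near multiples of 1 step per library. The step was chosen to fit those same values best, so this describes them and does not test the unit. Because 54.1% to 60.7% of low values were whole within 0.1 read, reads were not recovered and the values were not given to a count test. A second header line inside each table was dropped.

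The members and lists were chosen with earlier results of these data known. limma 3.58.1 in R 4.3.3 fitted log2(RPKM + 1) of all 8 samples together, with a trended variance and no block, after the filter of 1 RPKM in 2 samples. Each of 6 comparisons was adjusted by Benjamini-Hochberg over 13200 genes, at a threshold of 0.05. The fit was tested on simulated data with the same spread in every group, so that test does not cover the unequal spread of these groups. The median SE of a log2 difference was 0.102. The p-values measure the spread between these libraries, estimated for each gene over all groups together. The median gap within a pair was 0.182 log2 units in 3F+IL6, 0.102 in 4F, 0.056 in ES and 0.05 in MEF. Tests of 3F+IL6 thus borrow the smaller spread of other groups, and a wide 3F+IL6 pair widens the SE of comparisons without it. For Id1 the gap was 1.07 in 3F+IL6, 0.02 in ES and 0.04 in MEF. Named genes were the 10 members, listed receptors, SMADs and E proteins, up to 4 called genes with the smallest p per other list and comparison, marker genes, and the 3 nearest profiles of 6 members. Some other listed genes were named after seeing the data, where they limit a statement. Coordinates are from the GENCODE annotation of mm10, 1-based. Alternatives were another pseudocount, other filters, scalings and variance models, array weights, a replicate block, the 4 samples compared alone, and each library left out. The counts of each list by direction under other scalings were added after seeing the data. Some items are not reported here.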

Additional observations from a re-analysis of the deposited data

How the results depend on the processing

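Over the 10 genes and 6 comparisons, 968 of 1014 log2 differences recomputed under the alternatives kept both direction and side of the threshold, 29 gained a call, 12 lost a call and 7 changed sign, 2 of which also gained a call. The direction could change only with another pseudocount, another scaling or a library of the compared groups left out. Under the other alternatives the difference itself stays the same and only the call could change, so the number that kept direction was largely fixed in advance. Between the kinds of clone, Id1 ran from −0.44 to 0.63 with a library left out, Id2 from −0.31 to 0.37 and Smad6 from −0.28 to 0.12. The sign changed for Id1 without 3F+IL6 clone 2, for Id2 with median centring (−0.01), without that clone and on leaving out 4F clone 1 (−0.05), and for Smad6 without that clone and on leaving out 4F clone 1 (0.05). Bmp4 in 3F+IL6 against MEF ran from −0.35 to 0.19, and the cause was not tested. With each library left out, the number of the 10 genes called ran from 0 to 5 between the kinds of clone, 7 to 9 for 3F+IL6 against ES, 5 to 9 for 4F against ES, 9 to 10 for 3F+IL6 and for 4F against MEF, and 7 to 9 for ES against MEF. Between 3F+IL6 and 4F, 177 of all tested genes were called, 56 with a pseudocount of 0.1, 315 with quantile normalization, 5 with array weights, 36 with the replicate number as a block, 12 with the 4 samples fitted alone, and 6 to 4802 with a library left out. The replicate block changed no call of the 10 genes. Same-numbered libraries of different groups had deviations correlated at −0.055 to 0.214, so the numbers were not taken as pairs. With a mean of at least 5 RPKM, Smad6 was not tested, and of the other pathway genes 17 were called in 3F+IL6 and 15 in 4F against ES (26 and 28 in the full set), and 21 in 3F+IL6, 22 in 4F and 20 in ES cells against MEF (39, 40 and 38), because fewer genes were tested. Depth limits Id4 and Smad6 most.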

Other observations

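A few listed pathway genes below the filter, and endoderm markers beside them, were higher in 3F+IL6 clone 2 than in clone 1. They were chosen after their values were seen and no test of them was made. Cer1, which encodes a secreted inhibitor of Nodal and BMP, was at 0.129 RPKM in clone 1 and 14.4 in clone 2, at 0 and 0.046 in the 4F clones, and listed at 0 in all ES and MEF libraries. The ligand gene Bmp2 had 0.177 and 1.88 RPKM in 3F+IL6 clones, 0.234 and 0.22 for 4F clones, 0.0501 and 0.184 for ES cells, and 0.288 and 0.26 for MEF. The endoderm transcription factor gene Foxa2 had 0.105 and 1.61 RPKM in 3F+IL6 clones, 0.0792 and 0.112 for 4F clones, 0.297 and 0.125 for ES cells, and 0 and 0.0257 for MEF. Sox17, another, had 0.0942 and 0.908 RPKM in 3F+IL6 clones, 0.374 and 0.151 for 4F clones, 0.682 and 0.548 for ES cells, and 0 and 0 for MEF, so ES cells were not far below clone 2. Dlx3, a homeobox gene known as a BMP target, ran the other way in the same pair, with 2.7 and 0.641 RPKM in 3F+IL6 clones, 2.03 and 1.76 for 4F clones, 0.145 and 0.28 for ES cells, and 0.0855 and 0 for MEF.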
